A study of Mus musculus with 18 samples.

Results

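Cytosolic ribosomal proteins are the protein component of the ribosome, which reads messenger RNA in the cytoplasm. The genes described here were chosen by symbol from the single-cell gene list: every Rpl or Rps gene of the standard numbering, plus Rpsa, Rplp0, Rplp1 and Rplp2. This gave 84 of the 47728 genes counted in bulk. They comprise 77 core genes (46 of the large and 31 of the small subunit), 6 paralogs (Rpl3l, Rpl7l1, Rpl10l, Rpl22l1, Rpl39l and Rps27l) and Rpl6l, which GENCODE M21 lists as a processed pseudogene.

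The study measured RNA in mouse myogenic progenitors, the cells that make skeletal muscle. Its bulk part holds 15 libraries in 5 groups of 3. The iPax3 and iPax7 groups are progenitors derived from pluripotent stem cells (PSC), sorted from embryoid bodies as Vcam1+Flk1- cells and then grown with doxycycline and bFGF for 3 passages. The labels spell the strain of the embryonic (Emb, E10.5) and fetal (Fet, E14.5) myoblasts as My5Cre Rosa26YFP. Neonatal satellite cells (Neo) were taken on postnatal day 3 from the hindlimbs of Pax7-ZsGreen mice. There is 1 single-cell library of iPax3 cells and 1 of adult satellite cells, sorted by Pax7-ZsGreen from tibialis anterior muscle of mice aged 3 months. The PSC-derived cells were cultured and the tissue cells were freshly sorted, so origin and culture cannot be told apart. No label says how many lines, animals or litters stand behind the replicates, so p-values measure only the spread between these libraries.

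Ribosomal protein genes are transcribed at high levels in all growing cells, and their products must be made in near-equal numbers to build the subunits around ribosomal RNA. Many of their messengers begin with a 5' terminal oligopyrimidine (TOP) tract, a C followed by a run of pyrimidines, through which mTOR signalling controls their translation. Cells that grow fast, such as activated muscle progenitors, need many ribosomes, whereas quiescent satellite cells make little new protein.

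A pyrimidine run was more frequent at the members' starts than at all starts, though most of their starts lacked one. RefSeq (GRCm38.p6) gave 75 starts for 63 of the 84 genes, and the other 21 had no entry. A C followed by at least 4 further pyrimidines, beginning within 5 bases of the annotated start, was present at 31 of the 75 starts (41.3%), against 18.3% of all 32851 starts. With the C exactly at the annotated start, the shares were 17.3% and 2.51%. The letters CCGGAAG, on either strand of the 300-base window, were present at 36% of the members' starts and 8.86% of all starts, and AAGATGG at 16% and 6.34%. TATAAA was present at 9.33% and 13.6%. The windows below run from 40 bases before the annotated start to 20 bases from it onward, on the gene's strand, and were chosen for genes that the later results turn on. Capitals mark the pyrimidine run that begins near the start, and the windows of Rps28 and Rpl10 hold none.
Rps18 (chr17:33955646-33955705, minus strand): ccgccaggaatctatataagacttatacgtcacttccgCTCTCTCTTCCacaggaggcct
Rps27 (chr3:90213629-90213688, minus strand): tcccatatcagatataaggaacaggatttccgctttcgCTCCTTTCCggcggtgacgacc
Rps27l (chr9:66946046-66946105, plus strand): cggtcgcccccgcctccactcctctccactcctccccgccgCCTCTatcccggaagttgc
Rpl38 (chr11:114668540-114668599, plus strand): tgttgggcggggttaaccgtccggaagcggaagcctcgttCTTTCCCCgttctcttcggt
Rpl39 (chrX:37085203-37085262, minus strand): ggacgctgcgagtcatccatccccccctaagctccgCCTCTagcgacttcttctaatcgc
Rpl22l1 (chr3:28805468-28805527, plus strand): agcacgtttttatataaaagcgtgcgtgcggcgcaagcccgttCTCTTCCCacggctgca
Rps28 (chr17:33824543-33824602, minus strand): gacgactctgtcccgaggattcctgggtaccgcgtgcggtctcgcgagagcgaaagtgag
Rpl10 (chrX:74270776-74270835, plus strand): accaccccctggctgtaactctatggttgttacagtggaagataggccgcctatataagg
The run is 11 bases long in Rps18, 8 in Rpl38 and Rpl22l1, and 5 in Rps27l and Rpl39. Rps27l has another annotated start without a run. The annotated start is a single base, so a window without a run says only that these letters are not at that place.

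The deepest library was iPax3 replicate 1, with 56275318 counts, and the shallowest Fet replicate 1, with 516504; 78 to 84 members had at least 1 count in each. iPax7 replicate 1 stood apart. Its summed pluripotency markers reached 3994.5 CPM (counts scaled to a common library size), against 7.23 to 463 in the other 14 libraries. The highest of these, in Neo replicate 1, was nearly all Klf4 (463 CPM), with Pou5f1 at 0 and Nanog at 0.0707 CPM. Summed satellite and myogenic markers were 26.1 CPM in iPax7 replicate 1, against 178 to 1111 in the others. In Neo these sums held little Pax7 (0.495, 4.08 and 5.12 CPM), against 32.6 to 55.3 CPM in Fet. Vcam1, also in the sums, was at 92.7 to 110 CPM in Neo. Summed fibroblast markers lay at 27182 to 78366 CPM in Neo and at 24853 to 28056 in Fet, but at 2030 to 2183 in Emb and 96.8 to 1067 in the iPax libraries. Endothelial markers reached 2294 to 3034 CPM in Neo and immune markers 263 to 943. Cell-cycle markers summed to 688 to 1127 CPM in Neo and 1311 to 3058 elsewhere. The part of these marker differences in the results below was not tested. In bulk libraries, more cells of a type and more RNA per cell cannot be told apart.

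Ribosomal protein genes took a larger share of all counts in the PSC-derived libraries. The share was 3.24%, 2.97% and 3.66% in iPax3 and 5.28%, 2.55% and 3.76% in iPax7. It was 2.52%, 1.86% and 2.02% in Emb, 1.96%, 2.24% and 2.08% in Fet, and 1.82%, 1.97% and 1.31% in Neo. The lowest PSC-derived library was only just above the highest tissue library, so the classes came close to overlapping. The group means ± SD (n = 3) were, in the same order, 3.29% ± 0.348, 3.86% ± 1.37, 2.14% ± 0.346, 2.10% ± 0.142 and 1.70% ± 0.345. Mitochondrial transcripts took at least 6.62% of counts in Neo and 3.56% to 5.96% in Fet, against 2.22% to 3.01% for iPax3 and iPax7 and 2.44% to 2.76% for Emb. The 20 most abundant genes took 17.9% to 19.9% in Neo and 6.90% to 8.90% in the iPax libraries. With mitochondrial counts left out, the members' share was 2.62% to 5.42% in PSC-derived and 1.41% to 2.59% in tissue libraries; the part of the most abundant genes was not tested. The balance between the subunits was separate in the classes. Counts of large-subunit genes were 1.16 to 1.22 times those of small-subunit genes in the 6 PSC-derived libraries and 1.34 to 1.64 times in the 9 tissue libraries, without overlap.

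**Figure D1:**
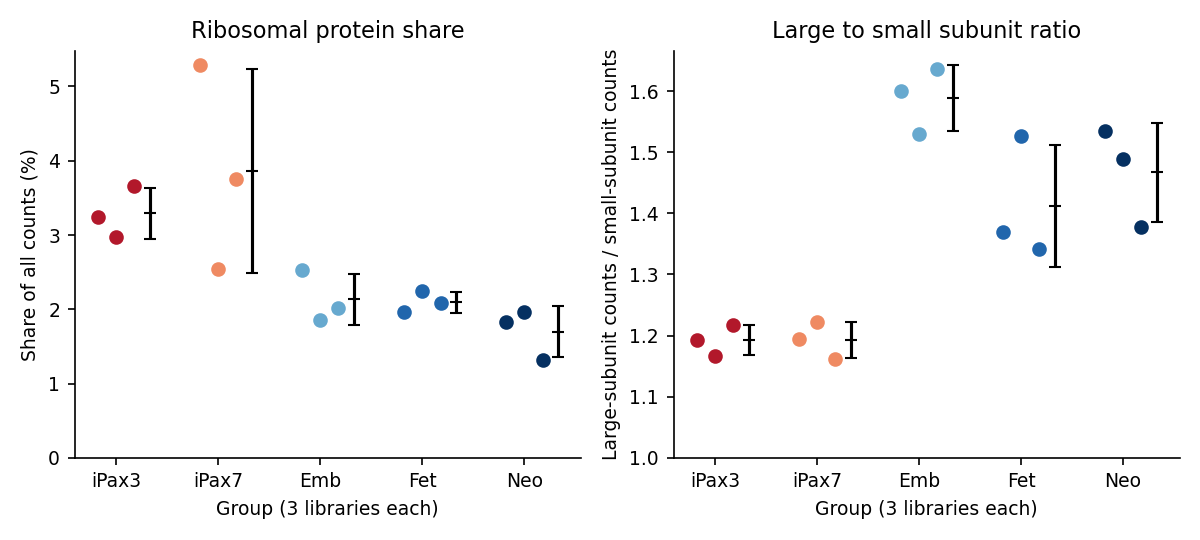
Points are the 3 libraries of each group, and the bar beside them is the mean ± SD. The left panel gives the share of all counts from ribosomal protein genes in percent, which spans 1.31% to 2.52% in tissue and 2.55% to 5.28% in PSC-derived libraries; the right panel gives the ratio of large-subunit to small-subunit counts on an axis that begins at 1, with 1.22 as the highest PSC-derived value and 1.34 as the lowest tissue value.

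Per kilobase of annotated transcript, averaged over the 5 groups, the highest levels were those of Rplp2 (1165 CPM per kilobase), Rps3 (1061), Rpl4 (977), Rps9 (922) and Rps24 (895). The lowest were Rpl29 (9.84), Rpl39l (3.37), Rpl6l (1.84), Rpl10l (1.58) and Rpl3l (0.213). The order among core genes spans a wide range although their proteins are present once or a few times per ribosome. Ribosomal protein genes have many processed pseudogene copies, and how the counting treated reads that fit several places is not given in the sources used here, so levels between members are uncertain. Across the 77 core genes, the mean bulk level and the level in iPax3 single cells had a correlation near 0 (Pearson's r = -0.0041, Spearman's rho = -0.157, over genes, which are not independent). The length used here and below is the median over the annotated protein-coding transcripts of a gene. It is also uncertain for single genes: the medians of Rps20 and Rps15a are 3706 and 5130 bases, far longer than those of most other members.

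Setting the 2 PSC-derived groups against the 3 tissue groups asked whether the members' levels differed between induced and tissue progenitors. Of the 82 members tested (Rpl3l and Rpl10l had too few counts), 45 were higher and 1, Rpl10, was lower in PSC-derived cells (edgeR quasi-likelihood test, Benjamini-Hochberg adjusted p under 0.05 over 17571 genes). Among all genes tested, 16.4% were higher and 11.7% lower. Among the 2275 genes of at least 100 CPM, 29.3% were higher and 21.5% lower. The members' median log2 fold change was 0.83, against 0.29 for all genes and 0.12 for those of at least 100 CPM. In 23 members, all 6 PSC-derived libraries lay above all 9 tissue libraries, as in 5.51% of all genes, and Rpl10 lay below them in all, as did 2.55%. Of the 46 calls, 35 were made in the same direction under all 23 other settings and sets of libraries. Without iPax7 replicate 1 there were 41 calls, and without both it and the shallow Fet replicate 1, an alternative chosen after seeing the data, there were 35.

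Calls were more frequent in the small subunit. Of the 31 core small-subunit genes, 23 (74.2%) were higher and 0 lower, with a median log2 fold change of 1.05. Of the 46 core large-subunit genes, 20 (43.5%) were higher and 1 lower, with a median of 0.72. Among all genes 16.4% were higher and 11.7% lower, and among those of at least 100 CPM 29.3% and 21.5%. The difference between the subunits was not tested.

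**Figure D2:**
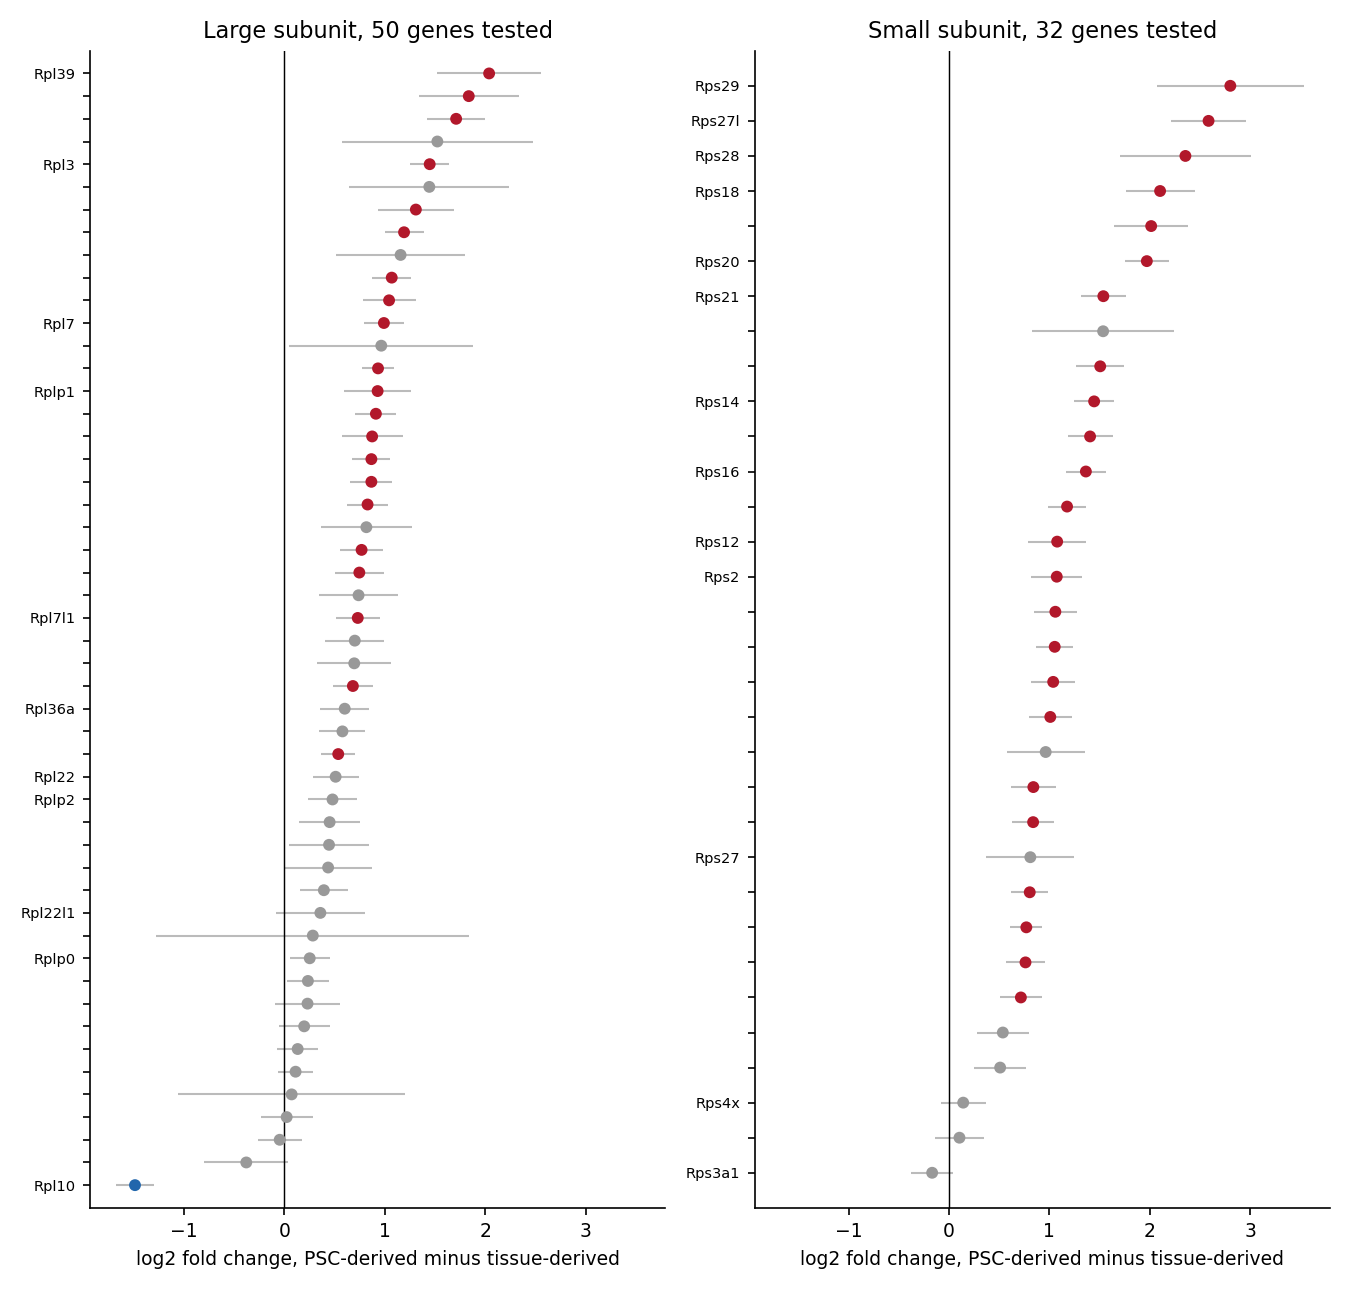
Each point is the log2 fold change of 1 tested gene, PSC-derived minus tissue-derived, with its standard error as a line; red points passed the test as higher, the blue point (Rpl10) as lower, and grey points did not pass. Labels are given for some of the genes described in the text. Most points lie to the right of 0, and the small subunit reaches further, up to 2.80 for Rps29.

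Small-subunit genes with the largest changes were Rps29, Rps27l, Rps28 and Rps18. Rps29 encodes a small zinc-binding protein of the head of the subunit (ENSMUSG00000034892, chr12:69157722-69159186 in GRCm38). Its level was lowest at 34.2, median 52.0 and highest at 78.0 CPM in PSC-derived libraries, and 0, 5.71 and 28.8 CPM in tissue. All PSC-derived libraries were above all tissue libraries, with a log2 fold change of 2.80 ± 0.73 (SE, adjusted p = 0.00905). Rps28 (ENSMUSG00000067288, chr17:33819027-33824562) lay at 41.3, 48.8 and 82.3 CPM (lowest, median, highest) in PSC-derived and at 0.0572, 13.2 and 20.4 in tissue libraries, a log2 fold change of 2.35 ± 0.65 (adjusted p = 0.013). Rps18 (ENSMUSG00000008668, chr17:33951999-33956001), whose start is printed above, ran from 148 to 388 CPM (median 209) and from 7.26 to 92.7 CPM (median 67.8), a log2 fold change of 2.10 ± 0.34 (adjusted p = 0.000312). In each of these 3 genes the 2 classes of libraries did not overlap. The lowest tissue values came from Emb replicates 2 and 3 in Rps29 and Rps18, and from Emb replicate 2 and Neo replicate 3 in Rps28, which was called in 22 of the 23 other settings.

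Rps27l, a paralog of Rps27 known as a p53 target, was at 50.4, 93.4 and 105 CPM (lowest, median, highest) in PSC-derived and at 2.12, 13.6 and 21.7 CPM in tissue libraries. The gene lies at chr9:66946086-66949516 (ENSMUSG00000036781), and its log2 fold change was 2.58 ± 0.38 (adjusted p = 0.000114). Rps27l also passed in each of the 6 comparisons of an iPax group with a tissue stage, as did Rps14, Rps16, Rps20 and Rps21. These 6 comparisons share libraries. Rps20, a protein of the subunit's head, was the most abundant of the 5, at 1134 to 4162 CPM (median 1991) against 391 to 818 CPM (median 573), with a log2 fold change of 1.97 ± 0.22 (adjusted p = 9.28e-06). Rps16 ran from 827 to 2140 CPM against 367 to 711, Rps14 from 394 to 868 against 102 to 254, and Rps21 from 136 to 368 against 45.4 to 96.0, so none of the 3 overlapped between the classes. Rps14 changed by 1.45 ± 0.20 (adjusted p = 7.72e-05), Rps16 by 1.36 ± 0.20 (adjusted p = 0.00012) and Rps21 by 1.54 ± 0.22 (adjusted p = 0.000111) on the log2 scale. The other small-subunit genes did not all move so far: Rps3a1 stood at -0.17 ± 0.21 (adjusted p = 0.591) and Rps4x, an X-linked gene, at 0.14 ± 0.23 (adjusted p = 0.685).

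**Figure D3:**
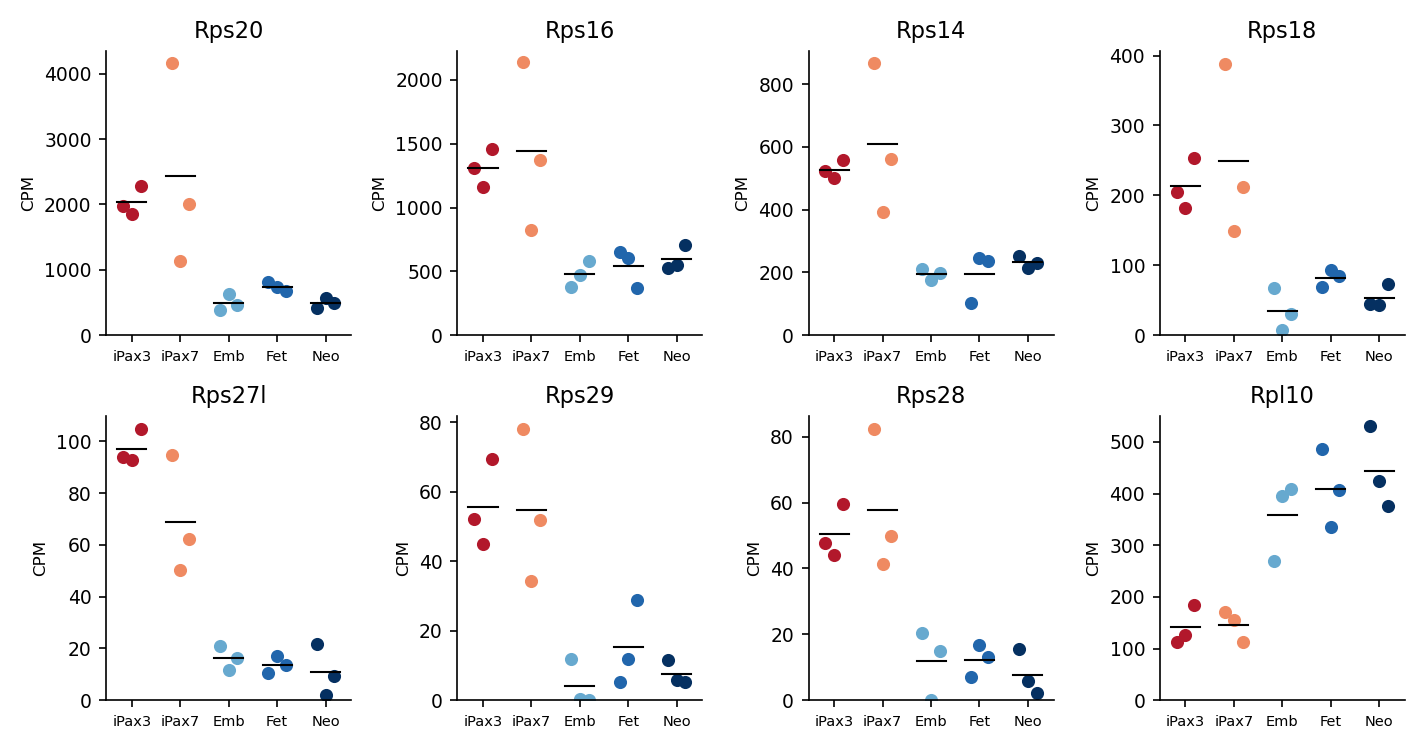
Each panel shows 1 gene, with the 3 libraries of each group as points and the group mean as a line, on a linear CPM axis from 0. In Rps20, Rps16, Rps14, Rps18, Rps27l, Rps29 and Rps28 the 6 iPax libraries are above all tissue libraries, and in Rpl10 they are below them.

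Rpl10 was the only member called lower, and it was called in all 6 comparisons of an iPax group with a tissue stage. Its protein joins the large subunit last, close to the site of peptide bond formation. Levels were 112, 126 and 185 CPM in iPax3 and 170, 154 and 113 CPM in iPax7. They were 270, 395 and 409 CPM in Emb, 486, 336 and 408 CPM in Fet, and 530, 425 and 376 CPM in Neo. The highest PSC-derived library was below the lowest tissue library, and the log2 fold change was -1.49 ± 0.19 (adjusted p = 2.75e-05). Rpl10 lies on the X chromosome, as do Rpl36a (0.60 ± 0.24, adjusted p = 0.0769), Rpl39 and Rps4x, which were not lower.

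Among large-subunit genes, Rpl39, which lines the tunnel through which new proteins leave, had the largest change. Its level was 142, 186 and 353 CPM (lowest, median, highest) in PSC-derived libraries and 7.00, 60.5 and 102 CPM in tissue, a log2 fold change of 2.04 ± 0.51 (adjusted p = 0.00841). Rpl3, close to the centre of peptide bond formation, ran from 705 to 1576 CPM against 240 to 556 CPM, a log2 fold change of 1.45 ± 0.19 (adjusted p = 4.64e-05). Both were free of overlap between the classes. The stalk proteins, which bind elongation factors, changed less: Rplp0 by 0.25 ± 0.20 (adjusted p = 0.373) and Rplp2 by 0.48 ± 0.25 (adjusted p = 0.159) did not pass, whereas Rplp1 passed at 0.93 ± 0.34 (adjusted p = 0.0481) but was called in only 7 of the 23 other settings.

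The shortest messengers had the highest median, among the members and among other genes. Members with transcripts under 600 bases had a median log2 fold change of 1.06 (13 of 23 higher), those of 600 to under 900 bases 0.77 (17 of 30) and longer ones 0.80 (15 of 29). Other protein-coding genes of the same length classes had medians of 0.95, 0.80 and 0.23, with 23.0%, 21.6% and 16.1% called higher. Across the 82 members, change and length were weakly related (Spearman's rho = -0.197). In tissue libraries 14 core genes fell under 10 CPM in at least 1 library while staying above it in every PSC-derived library. Emb replicate 3 had 10 core genes under 10 CPM, more than any other library. Rpl23a had 0 counts in Emb replicates 2 and 3, and Rpl29 in those and in Neo replicate 2. The part of transcript length in the result was not tested. Medians were close with and without the pyrimidine run: members with a run near a start had a median log2 fold change of 0.82 (15 of 29 higher), and those with a start but no run 0.72 (16 of 32 higher, 1 lower).

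Single comparisons of an iPax group with a stage gave fewer calls. For iPax3, 20 were higher and 1 lower than in Emb (all genes 9.34% and 7.64%), 7 and 1 against Fet (2.85% and 5.68%), and 26 and 1 against Neo (11.3% and 11.3%). For iPax7, the counts were 25 and 1 against Emb (8.51% and 5.54%), 11 and 1 against Fet (0.95% and 2.75%), and 30 and 1 against Neo (9.83% and 8.37%). Rpl10 was the 1 lower gene each time. Examples are Rps12 (2.19 ± 0.48, adjusted p = 0.00554) and Rps18 (2.61 ± 0.57, adjusted p = 0.00555) in iPax3 minus Emb, Rps14 (1.42 ± 0.32, adjusted p = 0.011) in iPax3 minus Fet, and Rps20 (2.04 ± 0.36, adjusted p = 0.000834) in iPax3 minus Neo. In iPax7, Rps2 rose by 1.64 ± 0.41 against Fet (adjusted p = 0.0346). These counts moved with single libraries. iPax3 minus Emb gave 32 calls without Emb replicate 1, 11 without Emb replicate 3 and 12 without iPax3 replicate 3. iPax3 minus Fet gave 16 without iPax7 replicate 1, 5 without iPax3 replicate 1, 3 without iPax3 replicate 3, 4 without Fet replicate 2 and 2 without Fet replicate 3. iPax3 minus Neo gave 13 without iPax3 replicate 3, and 16 with all libraries under RLE scaling. iPax7 minus Emb gave 13 without Emb replicate 3, 14 without iPax7 replicate 1 and 17 without iPax7 replicate 3. iPax7 minus Fet gave 3 without iPax7 replicate 1, 4 without Fet replicate 1, 4 without Fet replicate 2 and 2 without Fet replicate 3. iPax7 minus Neo gave 18 without iPax7 replicate 1 and 20 without Neo replicate 3.

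No member was called between iPax7 and iPax3 in edgeR (all genes 0.0569% higher and 0.0171% lower). DESeq2 called 1. An unadjusted p under 0.05 was reached in edgeR by 1 of the 82 members, Rpl39l, against 1083 of all 17571 genes. The members' median difference was 0.17 on the log2 scale. Spread within groups was unequal: the median SD of log2 CPM over the core genes was lowest in iPax3 (0.19), higher in Fet (0.40) and Emb (0.45), and highest in Neo (0.56) and iPax7 (0.57).

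Between tissue stages few members were called, and changes of 2-fold were not detectable in simulated counts for Neo minus Emb. None was called between Fet and Emb in edgeR (all genes 2.89% higher and 0.763% lower). DESeq2 called 1. In edgeR 6 of the 82 members reached an unadjusted p under 0.05, against 3872 of all 17571 genes. Without Emb replicate 1 there were 9 calls, and without Neo replicate 3 there was 1. Between Neo and Fet none was called in edgeR or DESeq2 (all genes 1.37% and 1%). An unadjusted p under 0.05 was reached in edgeR by 4 of the 82 members, against 3426 of all 17571 genes. Leaving out Neo replicate 3 gave 1 call. Between Neo and Emb, 2 members were higher, among them Rps12, and 1, Rpl7l1, was lower (all genes 11.7% and 8.43%), and 9 members were called without Emb replicate 1. DESeq2 called 6. Rps12 was at 97.0, 22.7 and 34.3 CPM in Emb and 210, 274 and 151 CPM in Neo, without overlap (log2 fold change 2.05 ± 0.48, adjusted p = 0.00771). Rpl7l1 fell by 1.41 ± 0.35 on the log2 scale (adjusted p = 0.0112).

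The paralogs did not move as one group. Rps27l exceeded Rps27 in every PSC-derived library, with 2.56 to 3.04 counts per Rps27 count in iPax3 and 1.47 to 1.69 in iPax7. In tissue the ratio was 0.385, 0.635 and 4.09 (lowest, median, highest) in Emb, 0.333, 0.562 and 1.15 in Fet, and 0.236, 0.25 and 0.984 in Neo. Rps27 itself changed by 0.81 ± 0.44 on the log2 scale (adjusted p = 0.18). The highest Emb ratio was that of replicate 3, where Rps27 stood at 3.97 CPM. Rpl7l1, related to the large-subunit gene Rpl7, had 0.152 to 0.207 counts per Rpl7 count in PSC-derived libraries and 0.129 to 0.61 in tissue, with the highest values in Emb. Between PSC-derived and tissue groups, Rpl7l1 rose by 0.73 ± 0.22 (adjusted p = 0.02, called in 20 of the 23 other settings) and Rpl7 by 0.99 ± 0.20 (adjusted p = 0.00176).

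Rpl22l1 can take the place of Rpl22 in the ribosome, and the pair did not pass the test in any of the 11 comparisons. Rpl22l1 was at 51.8 CPM (mean) in PSC-derived and 42.3 CPM in tissue groups, a log2 change of 0.36 ± 0.44 (adjusted p = 0.586), and Rpl22 changed by 0.51 ± 0.23 (adjusted p = 0.107). Rpl22l1 counts were 0.0990 to 0.188 of Rpl22 counts in PSC-derived libraries and 0.0105 to 0.376 in tissue. Rpl10l and Rpl39l, paralogs best known from the testis, stood at 23.6 and 23.7 CPM in iPax7 replicate 1, the library with pluripotency markers, and at no more than 0.501 and 4.74 CPM elsewhere. Rpl3l, the paralog of Rpl3 typical of mature striated muscle, reached 3.15 CPM in iPax7 replicate 1 and was at 0 in all 9 tissue libraries.

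**Figure D4:**
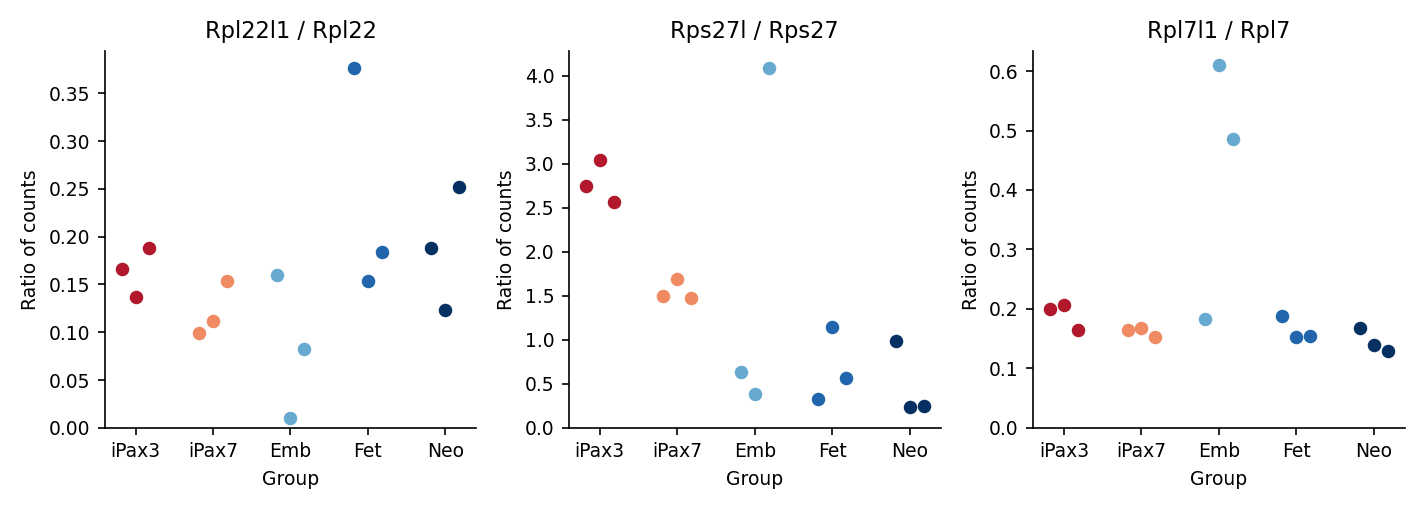
Points are single libraries and the vertical axes give the count of a paralog divided by the count of its partner. Rps27l per Rps27 is 2.56 to 3.04 in the iPax3 libraries and 4.09 in Emb replicate 3, and Rpl22l1 per Rpl22 and Rpl7l1 per Rpl7 overlap between PSC-derived and tissue libraries.

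Genes that build or control ribosomes were described as lists. In PSC-derived minus tissue-derived, 16.4% of all genes were higher and 11.7% lower. The shares among genes of at least 100 CPM were 29.3% and 21.5%. Of 72 ribosome assembly factors tested, 44 (61.1%) were higher and 1 (1.39%) lower in this comparison (median 1.05). Among those called, Nop2, an rRNA methyltransferase, changed by 1.78 ± 0.23 (adjusted p = 3.11e-05), Utp20 by 1.85 ± 0.26 (adjusted p = 7.13e-05) and Ddx21, a helicase, by 1.21 ± 0.18 (adjusted p = 0.000124), while the rRNA methyltransferase gene Fbl fell by 1.74 ± 0.25 on the log2 scale (adjusted p = 0.000114). RNA polymerase I and rDNA transcription genes gave 5 higher and none lower of 22 (22.7% higher against 16.4% of all genes and 29.3% of those of at least 100 CPM, median 0.64). The smallest adjusted p among them was that of Polr2e (1.53 ± 0.30, adjusted p = 0.0012), a subunit that all 3 RNA polymerases share. Of 25 other TOP messengers, 14 (56%) were higher and 4 (16%) lower (median 0.94). Elongation factor Eef2 rose by 1.49 ± 0.13 (adjusted p = 8.19e-07), Eif3l by 1.84 ± 0.19 (adjusted p = 4e-06) and Rack1, a protein of the small subunit outside the symbol rule, by 1.75 ± 0.21 (adjusted p = 2.23e-05). Gas5, a spliced host transcript of small nucleolar RNAs, fell by 1.83 ± 0.26 (adjusted p = 0.000104).

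Among 29 regulators of mTOR and Myc, 10 were higher and 4 lower (34.5% and 13.8%, median 0.45), against 16.4% and 11.7% of all genes and 29.3% and 21.5% of those of at least 100 CPM. Mdm2, which Rpl5 and Rpl11 are known to bind, was 1.93 ± 0.17 higher on the log2 scale (adjusted p = 6.84e-07), Eif4ebp1, a repressor of cap-dependent translation, 2.23 ± 0.32 higher (adjusted p = 0.000111) and Cdkn1a, a p53 target, 2.22 ± 0.34 higher (adjusted p = 0.000168). Sesn1 fell by 1.51 ± 0.25 (adjusted p = 0.000394). Myc itself changed by 0.43 ± 0.56 (adjusted p = 0.616). Mitochondrial ribosomal proteins, the parallel family of the mitochondrial ribosome, gave 18 higher (23.4%) and none lower of 77 tested, with a median of 1.13; Mrpl45 rose by 1.45 ± 0.25 (adjusted p = 0.000452). In Neo minus Emb, 25 of the 72 assembly factors (34.7%) and 7 of the 25 other TOP messengers (28%) were lower. Of the 77 mitochondrial ribosomal proteins, 11 (14.3%) were lower. No assembly factor, other TOP messenger or mitochondrial ribosomal protein was higher. Of the 29 mTOR and Myc regulators, 3 (10.3%) were higher and 2 (6.9%) lower. Among all genes 8.43% were lower and 11.7% higher, and among those of at least 100 CPM 23% and 13.6%. The difference from the ribosomal protein genes was not tested. In that comparison cell-cycle markers were also lower in Neo, and the part of this was not tested.

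In single cells, ribosomal protein genes took nearly the same share in both samples. After filtering, 579 adult cells and 2931 iPax3 cells remained, with 1 barcode in common and medians of 10765 and 11716 UMIs. The share was 37.6% of UMIs in adult cells (95% exact interval 37.5 to 37.6) and 37.8% in iPax3 cells (37.8 to 37.8), and the median per cell was 37.6% in both. A further deposited matrix holds both libraries again with iPax3 sequenced deeper; in this comparison, chosen after seeing the data, the same cells gave 37.8% in adult and 33.7% in iPax3 cells. With 1 library each there was no test, and intervals cover counting error only. The 2 samples differ in tissue age, culture and depth. Of the immune markers, Lyz2 had a UMI in 97.2% of adult cells and Tyrobp in 84.6%, against 0.751% and 0% of iPax3 cells. The other immune markers were in fewer adult cells, from Fcer1g (76.3%) to Ptprc (7.43%) and S100a9 (0%). Fibroblast markers in adult cells ranged from Dcn (96.9%) and Col1a1 (85.0%) to Pdgfra (6.56%) and Twist2 (0%). Endothelial markers in adult cells ranged from Egfl7 (81.0%) to Tek (10.9%). The part of such RNA and of depth in the values was not tested. Large-subunit UMIs were 1.17 times small-subunit UMIs in adult cells and 1.23 times in iPax3 cells, the opposite order to the bulk groups.

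Most members lay within 1.5-fold between the 2 single-cell samples. Of the 80 members of at least 100 CPM in one sample, 16 were at least 1.5-fold higher in iPax3 cells and 14 at least 1.5-fold lower, against 43.8% and 32.8% of the 1287 genes of that level, and the median log2 ratio was -0.09. The largest ratios of iPax3 over adult were those of Rps27l (366 to 3429 CPM, 9.37-fold, interval 9.03 to 9.72), Rps29 (1912 to 11938 CPM, 6.24-fold), Rpl38 (1362 to 6698 CPM, 4.92-fold) and Rps28 (1799 to 7799 CPM, 4.33-fold). The same ratios in the joint matrix were 8.01, 3.73, 3.18 and 3.08. Among the smallest were Rpl29 (2309 to 170 CPM, 0.0735), Rpl6l (531 to 48.0 CPM, 0.0905) and Rps3a1 (4582 to 1936 CPM, 0.423). Rpl10 had a ratio of 0.489, and Rpl22l1 and Rpl22 had ratios of 1.83 and 1.46. Rpl3l gave 47 UMIs in adult and 4 in iPax3 cells, a ratio of 0.0162 (interval 0.00423 to 0.0442).

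Set beside the bulk iPax3 minus Neo changes, which concern another stage and another assay, 33 of the 80 members were higher in both, 38 were higher in bulk and lower in single cells, 6 were lower in both and 3 were higher in single cells alone (Spearman's rho = 0.177 over the 80 genes). Rps27l, Rps29, Rps28 and Rpl39 were high in both, and Rpl10 was low in both. Members with transcripts under 600 bases had a median log2 ratio of 0.30 in single cells (16 of 23 above 0), those of 600 to under 900 bases -0.28 (12 of 29) and longer ones -0.15 (8 of 28). The authors' deposited table of cluster means gives the members 37.8% and 34.2% of the listed means in the 2 adult clusters and 36.5% to 39.8% in the 7 iPax3 clusters, the lowest of these in cluster 1, which has the highest listed Myog mean, 5.68. In the authors' deposited table, the adult cluster with the lower share also has the higher means of the endothelial genes Cdh5 (1.14 against 0.224), Pecam1 (1.32 against 0.342) and Kdr (0.847 against 0.317), and their part in the share was not tested.

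**Figure D5:**
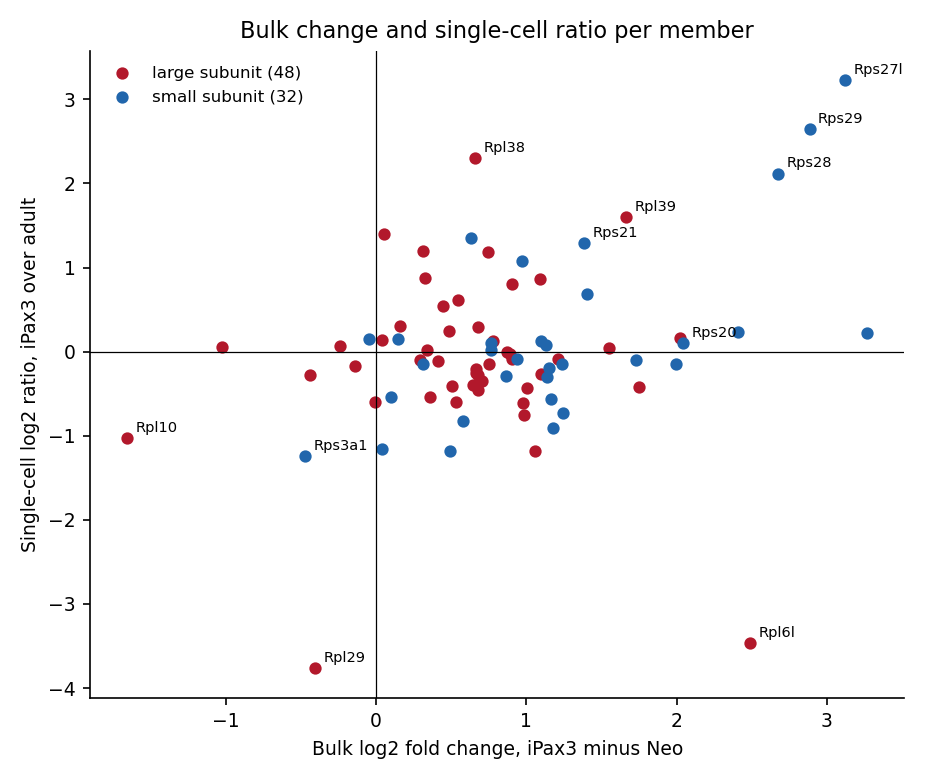
Each point is 1 of 80 members: the horizontal axis is the bulk log2 fold change of iPax3 minus Neo and the vertical axis the single-cell log2 ratio of iPax3 over adult cells, which has no replicates. Rps27l, Rps29, Rps28 and Rpl39 lie high on both axes, Rpl10 lies low on both, and Rpl29 and Rpl6l lie at the bottom.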

How the data were processed

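Bulk RNA sequencing covered 15 libraries and droplet single-cell sequencing adult and iPax3 cells. Per the labels, the authors deposited bulk read counts per gene; per the submitters' processing notes, CASAVA 1.8, HISAT2 2.0.2 and Subread featureCounts 1.4.6 were used with mm10, and Cell Ranger 2.2.0 for single cells. The strand setting, annotation and treatment of multiply mapping reads are not given in the sources used here. The deposited single-cell matrices hold UMI counts, and the authors' deposited cluster tables hold a signal, the mean UMI count per cell of each cluster, which was used.

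Members and lists were chosen with earlier results of these data known. Of 47728 genes, 47309 matched GENCODE M21. Genes passing filterByExpr (17571) were scaled by TMM and fitted with edgeR 4.0.16 under R 4.3.3 (limma 3.58.1), with 1 mean per group over all libraries; SE is the log2 fold change over the square root of F. CPM are TMM-scaled and log2 CPM use a prior of 2. DESeq2 1.42.0 was an alternative. Named members were, per bulk comparison, up to 4 called each way with the largest change and at least 20 CPM, the paralogs with partners, and the 4 largest single-cell ratios each way; further named genes were chosen after their values were seen, and a few that the rule selects are not reported here. From each other list, up to 3 called genes each way were taken.

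Among the 3000 largest barcodes, the 99th percentile of UMIs was taken; cells needed 10% of it, 500 UMIs, and under 10% mitochondrial UMIs. Doublets were not called. A further deposited matrix labelled as iPax3 holds both libraries again (all 1520821 of its first-suffix entries are in the adult matrix, and 99.9% of iPax3 entries are in the other suffix), so it was no replicate. No 2 replicates of a group agreed within counting noise (chi-square over degrees of freedom 7.7 to 460). Residuals of same-numbered libraries of different groups had correlations of -0.353 to 0.0987, which cannot show whether the numbers pair samples. On simulated counts for Neo minus Emb (17571 genes), 0% of 2-fold and 22% of 4-fold changes were recovered, with 0 false calls. Python 3.11.15, pandas 2.3.3, scipy 1.17.1 and matplotlib 3.10.9 were also used.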

Additional observations from a re-analysis of the deposited data

How the results depend on the processing

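For PSC-derived minus tissue-derived, the 46 calls became 40 to 49 under the other scalings, filters and tools and 41 to 48 with 1 library left out; Rpl10 stayed lower in all. Other scalings moved the all-gene median of that contrast from 0.29 to 0.17 (RLE) and 0.35 (library totals). Calls without 1 library ranged from 11 to 32 (iPax3 minus Emb), 2 to 16 (iPax3 minus Fet), 13 to 32 (iPax3 minus Neo), 13 to 34 (iPax7 minus Emb), 2 to 15 (iPax7 minus Fet), 18 to 35 (iPax7 minus Neo), 0 to 9 (Fet minus Emb), 2 to 9 (Neo minus Emb), 0 to 1 (Neo minus Fet) and 0 to 0 (iPax7 minus iPax3). RLE gave 16 in iPax3 minus Neo. DESeq2 gave 1 in Fet minus Emb, 1 in iPax7 minus iPax3 and 6 in Neo minus Emb, and no low-count filter gave 1 in Fet minus Emb. The replicate block gave 44 calls for PSC-derived minus tissue-derived and 6 in iPax7 minus Fet, where 12 were made. Whether the replicate numbers do more than name the libraries is not known. Without iPax7 replicate 1 and Fet replicate 1 together, chosen after seeing the data, iPax7 minus Emb gave 15, iPax7 minus Fet 2, iPax7 minus Neo 17 and Neo minus Fet 1. The cause was not tested. Of 3324 values of named genes under alternatives, 120 lost their call, 16 gained one and 0 reversed. The 3324 include paralogs and partners in comparisons where they were not called, which could not lose a call. The 120 are therefore not a share of the calls made.

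The single-cell share of iPax3 over adult cells, 1.0063, became 1.0005 with no mitochondrial limit, 1.0255 with mitochondrial transcripts left out and 0.892 in the joint matrix (chosen after seeing the data), where iPax3 cells were sequenced deeper. Fet replicate 1, with 516504 counts, has the least depth; leaving it out gave 4 calls in iPax7 minus Fet.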
